A study of Mus musculus with 6 samples.

Results

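The genes of compaction and apical polarity are described here in control KD and *Yy1* KD mouse morulae. They are 10 genes listed by name, *Cdh1*, *Ctnna1*, *Ctnnb1*, *Pard3*, *Pard6b*, *Prkci*, *Prkcz*, *Ezr*, *Myo10* and *Vcl*, and each was matched by its symbol to 1 of the 55364 genes of the table. All 10 were among the 17353 genes tested, which had at least 1 TPM in at least 3 of the 6 libraries. TPM is the number of read pairs on a gene per length of its exons, scaled to 1000000 per library. Embryos of the cross BDF1 x BDF1 were obtained by in vitro fertilization, injected with siRNA as zygotes and cultured in KSOM medium until 64 h after insemination. The control KD group received a control siRNA and the *Yy1* KD group an siRNA against *Yy1*, the gene of a zinc finger transcription factor, and each group had 3 libraries from pools of 10 morulae. The siRNA lowers the transcript without removing the gene. Nothing says that the pools came from separate fertilizations, so that p-values measure the spread between these pools, which may in part be technical.

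During compaction the rounded blastomeres of the early embryo flatten against each other and polarize. E-cadherin holds neighbouring cells together and is tied to the actin cortex through beta-catenin and alpha-catenin, while the PAR proteins and atypical protein kinase C gather with ezrin at the outer, contact-free surface. Outer polar cells later give rise mainly to the trophectoderm and inner apolar cells to the inner cell mass.

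The *Yy1* level of control KD libraries was 96.0, 100.2 and 89.8 TPM, that of *Yy1* KD libraries 8.73, 8.90 and 8.32 TPM, and every *Yy1* KD library lay far below every control KD library. The mean was 9.07% of the control, with a log2 fold change of -3.32 ± 0.09 (SE; limma adjusted p = 6.7e-05). The libraries held between 11793509 and 24417789 read pairs on genes, recovered from TPM and exon length. Of the genes tested, 6.11% were called at an adjusted p under 0.05 (limma on log2(TPM + 1), Benjamini-Hochberg adjusted over all genes tested), 4.2% as lower (728 genes) and 1.92% as higher (333 genes) in *Yy1* KD morulae. With quantile normalization the split was 548 lower and 388 higher. The pluripotency marker *Pou5f1* and the trophectoderm marker *Krt8* were present in every library, at means of 706 TPM and 291 TPM in control KD morulae. Cumulus cell markers, from the cells that surround the egg, summed to between 5.59 and 9.32 TPM per library, and 6 of their 13 genes were at 0 in all libraries.

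Among the 10 genes, *Ctnnb1* was downregulated in *Yy1* KD morulae and the other 9 did not pass the test, which is 1 of 10 beside the 6.11% of all genes tested. The mean was lower in *Yy1* KD morulae for 7 genes and higher for 3, and the median log2 fold change was -0.40 beside -0.02 over all genes tested. The control KD and *Yy1* KD values did not overlap for 5 genes, 4 of them lower (*Ctnnb1*, *Ctnna1*, *Pard6b* and *Prkcz*) and 1 higher (*Myo10*). Over all genes tested, 30.1% of genes did not overlap, 17.2% as lower and 12.9% as higher. With limma-voom on recovered read pairs, 6 of the 9 members that could be fitted were called, beside 2089 of all 16931 genes fitted. With protein-coding genes alone 5 of 10 were called, beside 1878 of 12370. Leaving out any 1 library gave 0 calls among the members, beside 73 to 412 among all genes.

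**Figure D1:**
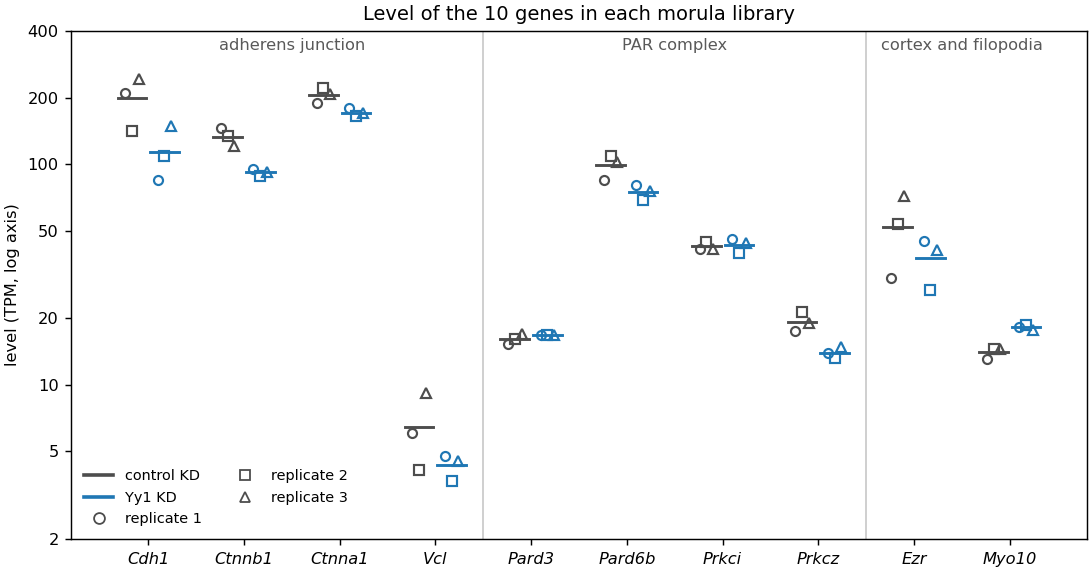
Level of each of the 10 genes in TPM on a log axis, with 1 symbol per library (grey, control KD; blue, *Yy1* KD; shape, replicate number) and a bar at the mean of 3 libraries. The blue and grey symbols are apart for *Ctnnb1*, *Ctnna1*, *Pard6b*, *Prkcz* and *Myo10*, and *Cdh1*, *Vcl* and *Ezr* are spread widely within the groups.

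*Ctnnb1* (ENSMUSG00000006932.17; chromosome 9, 120929216 to 120960507, plus strand of GRCm38, the assembly of mm10) encodes beta-catenin, which binds the cytoplasmic tail of E-cadherin and also carries Wnt signals to the nucleus. It was at 145, 134 and 121 TPM in control KD and at 95.3, 88.6 and 92.1 TPM in *Yy1* KD libraries. Every *Yy1* KD library lay below every control KD library. The mean fell from 133 ± 12.3 to 92.0 ± 3.35 TPM (SD, n = 3 each), to 69.1% of the control, with a log2 fold change of -0.53 ± 0.09 (SE; limma adjusted p = 0.0257). The same direction was found with all 16 alternative settings, but *Ctnnb1* was called with 7 of them and with 0 of the 6 that left out 1 library, where its adjusted p was between 0.0555 and 0.0873. Its exons overlap those of *Ulk4* on the other strand over 759 bases (14.6% of its exonic bases), where read pairs were shared between both genes, and the mean level of *Ulk4* was 17.3 TPM in the controls and 13.8 TPM after *Yy1* KD.

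RefSeq gives *Ctnnb1* a pair of start sites in GRCm38.p6. The window from 250 bases before to 50 after the downstream one holds the YY1 consensus GCCATNTT, the sequence bound by the zinc fingers of YY1. It is shown because it is the only match among the windows of these 10 genes. The match, in capitals, begins 98 bases before the downstream start site, at 120933480 to 120933487. It lies after the upstream start site, at 120933400, whose window does not hold it. The window shown is chr9:120933328-120933627 on the plus strand.

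Ctnnb1 promoter: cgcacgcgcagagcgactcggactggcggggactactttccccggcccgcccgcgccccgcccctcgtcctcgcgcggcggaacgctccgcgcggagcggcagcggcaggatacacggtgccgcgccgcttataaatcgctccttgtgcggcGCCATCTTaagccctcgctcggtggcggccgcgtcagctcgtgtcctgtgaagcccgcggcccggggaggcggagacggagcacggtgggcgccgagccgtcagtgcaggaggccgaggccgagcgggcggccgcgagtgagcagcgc

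The consensus was searched on both strands (AANATGGC on the other). Windows were present for 8 of the 10 genes, 13 windows in all, and 1 window held it. Over all 32851 windows of RefSeq genes 6.05% held it, and over those of the genes tested 8.61%. The core GCCAT, which lies within the consensus, was in 6 of the 13 windows (*Ctnnb1*, *Pard3*, *Prkcz* and *Myo10*) beside 40.5% of all windows. A match is a description of the sequence, and binding was not analysed here. *Cdh1* and *Ctnna1* were not analysed here in this respect.

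*Cdh1* (ENSMUSG00000000303.12; chromosome 8, 106603351 to 106670246, plus strand) encodes E-cadherin, the adhesion molecule without which embryos do not stay compacted. It was at 210.3, 141 and 244 TPM in control KD and at 84.5, 109 and 149 TPM in *Yy1* KD libraries. The groups overlapped, as *Yy1* KD replicate 3 was above control KD replicate 2. The mean was 199 ± 52.6 TPM in the controls and 114 ± 32.4 TPM after *Yy1* KD (SD, n = 3 each). The log2 fold change of -0.80 was the largest of the 10 genes, with a 95% interval from -1.42 to -0.18, and did not pass the test (limma adjusted p = 0.125). It was between -1.02 and -0.60 when 1 library was left out. It was called with limma-voom (adjusted p = 0.0298) and among protein-coding genes alone (limma adjusted p = 0.0470).

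*Vcl* (chromosome 14, 20929398 to 21033676, plus strand) encodes vinculin, which joins strained cadherin junctions to actin. It had the lowest level of the 10 genes, with 6.01, 4.11 and 9.19 TPM in control KD and 4.78, 3.65 and 4.53 TPM in *Yy1* KD libraries. The groups overlapped, and control KD replicate 3 stood above the other 5 libraries. The log2 fold change was -0.43 (95% interval -1.08 to 0.22, limma adjusted p = 0.394), and it was -0.18 without that library. Of its exonic bases 25.5% overlap *Ap3m1* on the other strand, where read pairs were shared between both genes. *Ap3m1* had mean levels of 25.0 TPM in the controls and 24.9 TPM after *Yy1* KD. How much of the low *Vcl* level came from shared pairs was not tested.

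*Ctnna1* (chromosome 18, 35118859 to 35254779, plus strand) encodes alpha-catenin, the link from beta-catenin to actin. It was at 189, 222 and 208 TPM in control KD and at 179, 165 and 169.6 TPM in *Yy1* KD libraries. The groups did not overlap, with the highest *Yy1* KD library just below the lowest control KD library. The mean was 206 ± 16.1 and 171 ± 6.82 TPM (SD, n = 3 each), with a log2 fold change of -0.27 (95% interval -0.46 to -0.07, limma adjusted p = 0.107). It was called with limma-voom (adjusted p = 0.0445) and among protein-coding genes alone (limma adjusted p = 0.0446).

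The 4 genes of the PAR complex did not pass the test. *Pard6b* (chromosome 2, 168081004 to 168101203, plus strand) encodes the PAR6 adaptor that activates atypical protein kinase C at the apical surface. It was at 84.7, 109 and 103 TPM in control KD and at 80.2, 68.7 and 75.5 TPM in *Yy1* KD libraries. All 3 *Yy1* KD values lay below the lowest control KD value. The log2 fold change was -0.39 (95% interval -0.66 to -0.12, limma adjusted p = 0.101).

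The atypical kinases themselves are encoded by *Prkci* (chromosome 3, 30995747 to 31052959, plus strand) and *Prkcz* (chromosome 4, 155260129 to 155361361, minus strand). *Prkci* was at 41.2, 44.6 and 41.3 TPM in control KD and at 45.7, 39.7 and 43.9 TPM in *Yy1* KD libraries. Its groups overlapped, and its log2 fold change of 0.02 had a 95% interval from -0.19 to 0.24 (limma adjusted p = 0.905). *Prkcz* was at 17.5, 21.4 and 19.0 TPM in control KD and at 13.9, 13.2 and 14.9 TPM in *Yy1* KD libraries. Its groups did not overlap, and its log2 fold change was -0.44 (95% interval -0.72 to -0.15, limma adjusted p = 0.0837). *Pard6b* and *Prkcz* were called with limma-voom (adjusted p = 0.0423 and 0.0343) and among protein-coding genes alone (limma adjusted p = 0.0358 and 0.0381).

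*Pard3* (chromosome 8, 127063893 to 127612286, plus strand, from an annotation that holds another version of this gene than the table) encodes the scaffold that recruits PAR6 and the kinase. It was at 15.4, 16.2 and 16.9 TPM in control KD and at 16.8, 16.8 and 16.7 TPM in *Yy1* KD libraries. It had the smallest spread of the 10 genes in *Yy1* KD libraries, 16.8 ± 0.0557 TPM (SD, n = 3), and its *Yy1* KD values lay within the range of the control KD values. The log2 fold change was 0.05, with a 95% interval from -0.18 to 0.29 (limma adjusted p = 0.794).

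Of the genes of the cortex, *Ezr* (chromosome 17, 6738041 to 6782784, minus strand) encodes ezrin, which ties the apical membrane and its microvilli to actin and marks the apical surface. It was at 30.5, 53.7 and 72.0 TPM in control KD and at 45.0, 26.9 and 40.6 TPM in *Yy1* KD libraries. The groups overlapped broadly. The log2 fold change of -0.41 had a 95% interval from -1.19 to 0.37 (limma adjusted p = 0.505) and was between -0.75 and -0.14 when 1 library was left out. *Myo10* (chromosome 15, 25622525 to 25813673, plus strand) encodes the unconventional myosin of filopodia, which reach over neighbouring cells during compaction. It was at 13.1, 14.5 and 14.5 TPM in control KD and at 18.3, 18.6 and 17.7 TPM in *Yy1* KD libraries. It was the member whose *Yy1* KD values all lay above the control KD values, with a log2 fold change of 0.35 (95% interval 0.11 to 0.60, limma adjusted p = 0.0980). *Myo10* was called with limma-voom (adjusted p = 0.0319).

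**Figure D2:**
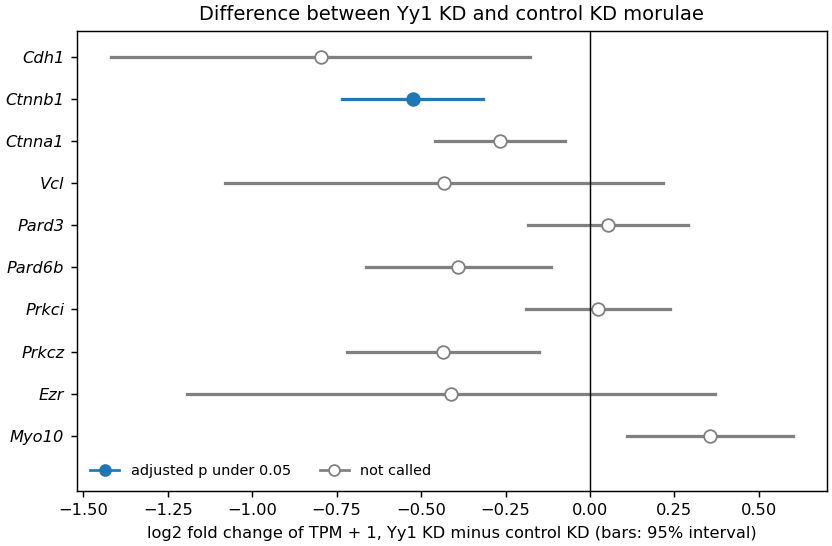
Log2 fold change of TPM + 1 between *Yy1* KD and control KD morulae for each gene (points) with its 95% interval from limma (bars), filled where the adjusted p was under 0.05. *Ctnnb1* is the filled point at -0.53, and the bars of *Vcl*, *Pard3*, *Prkci* and *Ezr* cross 0.

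The spread between pools differed among the genes. In control KD libraries the coefficient of variation was 40.0% for *Ezr*, 39.8% for *Vcl* and 26.5% for *Cdh1*, and between 4.47% (*Prkci*) and 12.7% (*Pard6b*) for the other 7. These 3 genes were highest in control KD replicate 3, as were *Pard3* and *Myo10* among the other 7. Read counting alone would give 2.70% for *Ezr*, 5.08% for *Vcl* and 1.23% for *Cdh1*, from the read pairs recovered, which lay between 255 and 562 for *Vcl* and between 4980 and 8337 for *Cdh1* in these libraries. Amplified reads carry no molecular identifiers here, so that these figures cover counting error only. In *Yy1* KD libraries *Cdh1* (28.5%) and *Ezr* (25.2%) again had the widest spread.

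TPM is per exon length and allows levels to be ordered within a group, though only roughly. The length counts all annotated exons of a gene, whether or not morulae use them. In control KD morulae *Ctnna1* (206 TPM), *Cdh1* (199 TPM) and *Ctnnb1* (133 TPM) led, followed by *Pard6b* (98.7 TPM), *Ezr* (52.0 TPM), *Prkci* (42.4 TPM), *Prkcz* (19.3 TPM), *Pard3* (16.1 TPM), *Myo10* (14.0 TPM) and *Vcl* (6.44 TPM). The ranges of neighbours overlapped between *Ctnna1* and *Cdh1*, between *Cdh1* and *Ctnnb1*, and between *Ezr* and *Prkci*, and were apart for the other neighbours. In *Yy1* KD morulae the first 4 places were held by the same genes in the same order. *Prkci* (43.1 TPM) stood above *Ezr* (37.5 TPM) with overlapping ranges, and *Myo10* (18.2 TPM) and *Pard3* (16.8 TPM) stood above *Prkcz* (14.0 TPM) with ranges that were apart.

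A ratio of 2 genes within a library does not depend on how the library was scaled. *Prkci* to *Prkcz* was 2.36, 2.08 and 2.17 in control KD and 3.28, 3.02 and 2.95 in *Yy1* KD libraries, without overlap. *Pard6b* to *Prkci* was 2.06, 2.45 and 2.48 in control KD and 1.75, 1.73 and 1.72 in *Yy1* KD libraries, again without overlap. *Prkci* itself was at 42.4 and 43.1 TPM on average, so that both ratios mainly restate the lower values of *Prkcz* and *Pard6b*, which were not called. *Prkci* to *Pard3* was 2.63 ± 0.164 and 2.57 ± 0.192 (SD, n = 3 each), with groups that overlapped.

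At the adherens junction, *Ctnna1* to *Ctnnb1* was 1.30, 1.66 and 1.73 in control KD and 1.88, 1.87 and 1.84 in *Yy1* KD libraries, without overlap. *Cdh1* to *Ctnnb1* was 1.45, 1.06 and 2.02 in control KD and 0.887, 1.23 and 1.61 in *Yy1* KD libraries, and the groups overlapped. These pairs were chosen after the levels had been seen and were not tested.

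**Figure D3:**
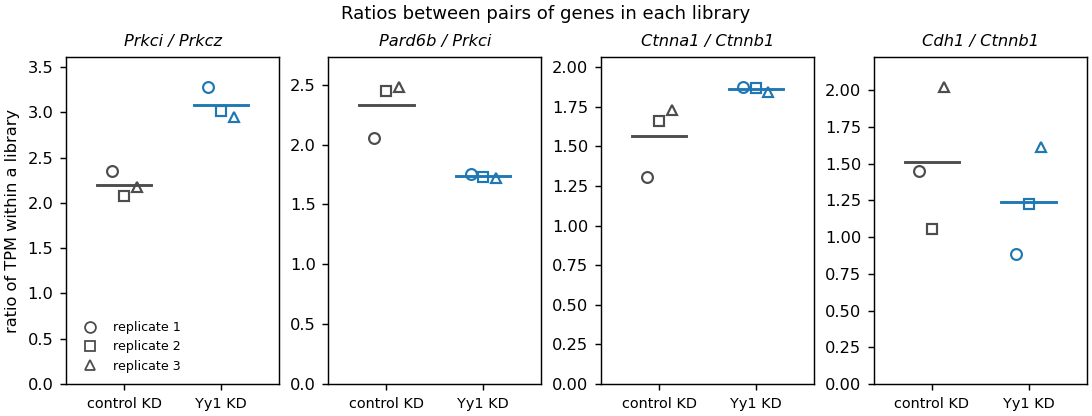
Ratio of the TPM of a pair of genes in each library, by group (grey, control KD; blue, *Yy1* KD; shape, replicate number; bar, mean of 3 libraries), on linear axes from 0. The groups are apart for *Prkci* to *Prkcz*, *Pard6b* to *Prkci* and *Ctnna1* to *Ctnnb1*, and overlap for *Cdh1* to *Ctnnb1*.

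The other genes of adhesion and polarity were listed by role, 87 in all, of which 76 were tested. The list was made with earlier results of these data known, which may have shaped its counts. In *Yy1* KD morulae 13 were downregulated and 1 was upregulated, 18.4% beside the 6.11% of all genes tested. The listed genes are all protein-coding, and the genes tested are not, so the contrast depends on the background. With protein-coding genes alone 28 of 76 were called, beside 1878 of 12370. With a mean of at least 5 TPM 14 of 64 were called, beside 1219 of 10675. Their median log2 fold change was -0.16. Groups did not overlap for 36 of the 76, 31 of them lower and 5 higher, beside the 30.1% of all genes tested. Of the 14 genes called, each kept its direction with every alternative that could be fitted, but was called with between 3 (*Myh9*) and 10 (*Tfap2c*) of them. No test of the list as a whole was made, and the count ranged from 0 to 5 when 1 library was left out. In 8 of the 14 genes called, exonic sequence is shared with another annotated gene, and read pairs were assigned without regard to strand.

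The list of the actomyosin cortex held the most genes called, 6 of 20 tested, all downregulated. *Actg1*, a cytoplasmic actin whose reads can be shared with close copies elsewhere in the genome, was at 959, 1160 and 1216 TPM in control KD and at 821, 551 and 626 TPM in *Yy1* KD libraries (log2 fold change -0.75, limma adjusted p = 0.0475). The actin crosslinkers *Actn1* (-0.42, adjusted p = 0.0245) and *Actn4* (-0.37, adjusted p = 0.0407) and the myosin chains *Myl6* (-0.38, adjusted p = 0.0298), *Myh9* (-0.38, adjusted p = 0.0499) and *Myh14* (-1.60, adjusted p = 0.0245) were the other 5. *Myh9* encodes the heavy chain of non-muscle myosin that tenses the cortex, and was at 102, 106 and 108 TPM in control KD and at 88.2, 74.3 and 79.4 TPM in *Yy1* KD libraries. Their groups did not overlap.

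At the adherens junction 3 of 15 genes tested were downregulated. These were the junction receptor *Nectin2* (log2 fold change -0.92, limma adjusted p = 0.0257), its partner *Afdn*, which encodes afadin (-0.58, adjusted p = 0.0467), and the LIM protein gene *Ajuba* (-0.60, adjusted p = 0.0308). *Nectin2* was at 36.3, 29.6 and 36.5 TPM in control KD and at 14.4, 20.2 and 18.4 TPM in *Yy1* KD libraries. Of the relatives of the members, *Cdh3* (P-cadherin) was at 3.56 and 1.61 TPM on average, with groups that did not overlap, and did not pass the test (log2 fold change -0.80, limma adjusted p = 0.0515). *Jup*, the gene of plakoglobin and the closest relative of *Ctnnb1*, was at 29.4, 35.0 and 29.5 TPM in control KD and at 32.1, 33.3 and 32.7 TPM in *Yy1* KD libraries (log2 fold change 0.07, limma adjusted p = 0.736). *Cdh2*, *Ctnna2* and *Ctnna3* were under the level tested.

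Among the ezrin relatives, *Rdx*, the gene of radixin, was downregulated. It was at 59.7, 57.8 and 58.5 TPM in control KD and at 21.8, 32.3 and 35.1 TPM in *Yy1* KD libraries, a log2 fold change of -0.98 ± 0.17 (SE; limma adjusted p = 0.0289). *Msn*, the gene of moesin, was at 3.76 and 4.09 TPM on average (log2 fold change 0.08, limma adjusted p = 0.882). In control KD morulae radixin transcripts, at 58.6 TPM on average, stood near those of *Ezr*, at 52.0 TPM, and moesin transcripts were far lower. The other 6 genes tested of this list were not called.

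The other PAR and Crumbs genes had no gene called among 7 tested. *Cdc42*, the GTPase that binds PAR6, had mean levels of 165 TPM in the controls and 171 TPM after *Yy1* KD (log2 fold change 0.06, limma adjusted p = 0.768), and the Crumbs gene *Crb3* was at 46.2 and 37.6 TPM (-0.28, adjusted p = 0.334). The *Pard6b* relatives *Pard6a* (4.79 and 5.94 TPM) and *Pard6g* (3.43 and 3.59 TPM) were far lower than *Pard6b* itself and were not called, and *Pard3b*, the relative of *Pard3*, was under the level tested. Of the 7 protein kinase C genes outside the atypical class only 3 reached the level tested, and 0 of these 3 were called. *Prkcd* had mean levels of 8.86 TPM in the controls and 8.06 TPM after *Yy1* KD (log2 fold change -0.11, limma adjusted p = 0.795).

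Of 10 basolateral polarity genes 1 was downregulated and 1 upregulated. *Dlg5*, a scaffold of the cell border, was at 7.01, 9.47 and 6.62 TPM in control KD and at 2.55, 3.06 and 2.85 TPM in *Yy1* KD libraries (log2 fold change -1.17, limma adjusted p = 0.0233). *Stk11*, the gene of the polarity kinase LKB1, was at 45.6, 43.5 and 50.6 TPM in control KD and at 60.4, 69.2 and 60.6 TPM in *Yy1* KD libraries (0.44, adjusted p = 0.0497). *Stk11* was called with 4 of the 15 alternatives that could be fitted for it and lost its call with TPM + 0.1, with robust variances and without any 1 library. In the tight junction list 1 of 9 genes was downregulated, the claudin *Cldn6* (-1.47, adjusted p = 0.0309). Among 5 transcriptional regulators of the apical domain *Tfap2c* was downregulated, from 192, 179 and 179.7 TPM to 135, 116 and 125 TPM (-0.54, adjusted p = 0.0174), and *Tead4* was at 116 and 113 TPM on average (-0.05, adjusted p = 0.824; chosen after its values were seen).

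**Figure D4:**
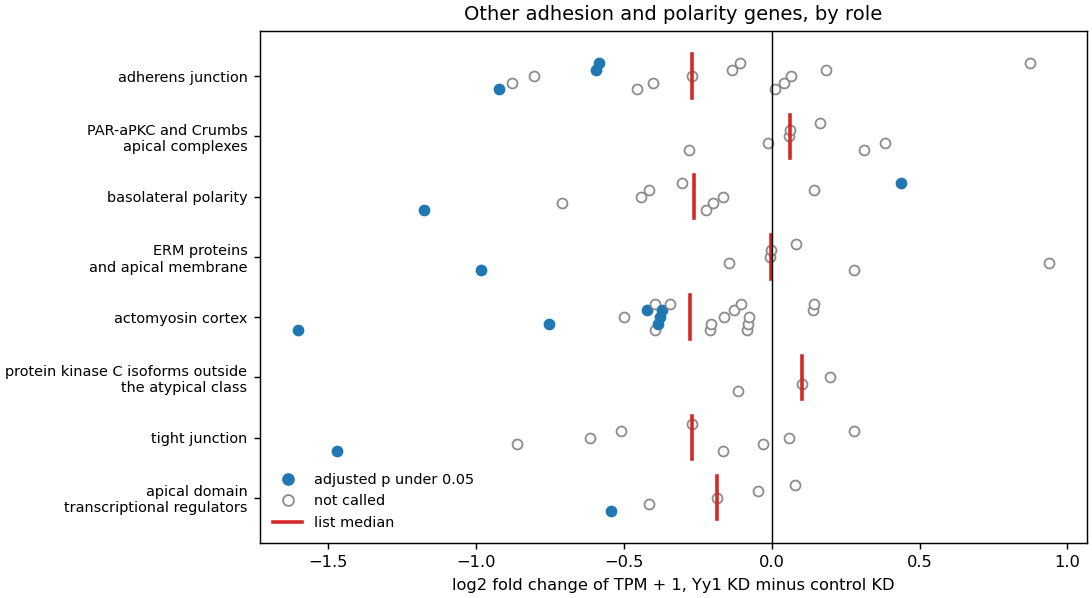
Log2 fold change of TPM + 1 between *Yy1* KD and control KD morulae for the 76 other adhesion and polarity genes tested (1 point per gene, in rows by role; filled where the adjusted p was under 0.05; red line, list median). The 6 filled points of the actomyosin row all lie left of 0, and the PAR-aPKC and Crumbs row has 0 filled points.

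The YY1 consensus was present in the promoter windows of 5 of the 66 of these genes that had a window, *Dlg1*, *Mark3*, *Stk11*, *Lin7c* and *Cgn*, which were named for this match. Of all genes tested that had a window, 10.4% held the consensus in at least 1 window. The 66 also include genes under the level tested, such as *Ctnna2* and *Pard3b*, so these shares are not of like sets. The matches are shown with the bases around them, with the match in capitals, to set beside that of *Ctnnb1*, and *Stk11* is the 1 gene of the 5 that was called. *Stk11* holds the match from 22 bases after its start site (chr10:80115801-80115840, plus strand), *Dlg1* from 51 before (chr16:31663868-31663907, plus strand), *Mark3* from 8 before or 3 after (chr12:111574497-111574536, plus strand, a pair of start sites), *Lin7c* from 4 after (chr2:109890866-109890905, plus strand) and *Cgn* from 233 before (chr3:94786692-94786731, minus strand), all in GRCm38.p6.
Stk11: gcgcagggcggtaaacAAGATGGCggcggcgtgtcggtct
Dlg1: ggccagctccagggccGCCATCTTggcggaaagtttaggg
Mark3: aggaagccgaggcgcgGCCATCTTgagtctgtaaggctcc
Lin7c: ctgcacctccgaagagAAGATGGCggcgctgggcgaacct
Cgn: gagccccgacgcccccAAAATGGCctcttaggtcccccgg

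*Dlg1* had a log2 fold change of -0.71 (limma adjusted p = 0.0614), *Mark3* of -0.22 (adjusted p = 0.171), *Lin7c* of 0.14 (adjusted p = 0.568) and *Cgn* of -0.16 (adjusted p = 0.515). The windows of the downregulated genes of the list held no match, and *Tfap2c* was not analysed here in this respect.

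Whole embryos were pooled, so that fewer cells of a type cannot be told apart from less RNA per cell. The 12 trophectoderm markers summed to between 632 and 722 TPM in control KD and between 519.9 and 711 TPM in *Yy1* KD libraries. Of the 9 tested 0 were called, beside the 6.11% of all genes tested. *Krt8* was at 291 and 211 TPM on average (log2 fold change -0.45, limma adjusted p = 0.231). *Krt18* was at 187 and 193 TPM (0.04, limma adjusted p = 0.889). Of these 9 markers 1 did not overlap between the groups and was higher in *Yy1* KD libraries, beside 12.9% of all genes tested. It was *Id2* (named after its values were seen), at 1.73 and 5.16 TPM on average (1.12, limma adjusted p = 0.0893). The 11 inner cell mass markers summed to between 2943 and 3056 TPM in control KD and between 2659.6 and 2796 TPM in *Yy1* KD libraries. Of these 0 of 11 were called, beside the same 6.11%. However, 6 of the 11 did not overlap between the groups and were lower in *Yy1* KD libraries, beside 17.2% of all genes tested. The *Yy1* KD means of these 6 were between 39.3% and 93.7% of the control. The sum of 9 genes typical of the stage of zygotic genome activation was uneven within the groups. It was between 59.8 and 173 TPM in control KD and between 49.4 and 191 TPM in *Yy1* KD libraries. A single gene gave 154 TPM of the highest control KD sum and 153 TPM of the highest *Yy1* KD sum. Only 4 of the 9 reached the level tested. The part of these markers in the values of the 10 genes was not tested.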

How the data were processed

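RNA was measured in 6 libraries of pooled mouse morulae, 3 of control KD and 3 of *Yy1* KD, made with a stranded SMART-Seq kit. The authors trimmed reads with Trim Galore 0.6.7, aligned them to mm10 with HISAT2 2.2.1 and counted read pairs per GENCODE gene with featureCounts 2.0.1, ignoring strand and splitting pairs between overlapping genes, and they deposited the result as TPM, which sums to 1000000 per library. Replicates were not pooled. GENCODE vM21 (GRCm38) gave coordinates and exon lengths here. It holds 98.1% of the gene versions of the table, and TPM times exon length gave back the read pairs, with 89.0% to 90.9% of low values whole within 0.01. Recovered pairs carry no molecular identifiers.

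Genes with at least 1 TPM in at least 3 libraries were tested with limma 3.58.1 in R 4.3.3 on log2(TPM + 1), which understates the change of low genes, with a variance trend and no covariate. P-values were two-sided and Benjamini-Hochberg adjusted over all 17353 genes, and genes under 0.05 were called. Alternatives changed the pseudocount, filter, scaling, variance model, gene set, replicate block and the library left out, or used limma-voom on recovered pairs. Scripts were tested on simulated data. Every member, *Yy1*, the called genes of each list, the 2 highest genes of lists with none called, relatives of the members and leading markers are named, except 1 gene that is not reported here. The members and lists were chosen with earlier results of these data known. Promoter windows came from RefSeq.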

Additional observations from a re-analysis of the deposited data

How the results depend on the processing

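*Yy1* kept its direction and its call in all 16 alternatives, with a log2 fold change between -3.45 and -3.26. With TPM + 0.1, a mean of at least 5 TPM, median-ratio scaling, quantile normalization or robust variances, the counts of genes called stayed within 1.5 times of the 1061 genes, 1 member and 14 other adhesion and polarity genes reported. Without a filter on low values 347 genes, 0 members and 2 of these others were called, and without a variance trend 514, 0 and 4. With limma-voom on recovered read pairs 2089 of 16931 genes, 6 of 9 members and 24 of 68 others were called. With protein-coding genes alone these were 1878 of 12370, 5 of 10 and 28 of 76. With 1 library left out, between 73 and 412 genes, 0 members and 0 to 5 others were called, with the fewest (73) without control KD replicate 3. With the replicate number as a block, 287 genes, 0 members and 1 other were called. The numbers share no stated batch, and same-numbered libraries deviated from their group means with correlations of -0.00388, 0.0319 and 0.0747, so they were not taken to pair the libraries. The log2 fold change of *Prkci* was between -0.0187 and 0.0808 with 1 library left out, and below 0 without *Yy1* KD replicate 1. The other 9 members kept their direction. The cause of these shifts was not tested. With 3 libraries a group, the smallest exact permutation p for a single gene is 0.1.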

Other observations

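Of the other adhesion and polarity genes, 11 were under the level tested, with 0.876 TPM as their highest value in any library. Among the relatives of the members, the mean level of *Cdh2* was 0.208 TPM in the controls and 0.348 TPM after *Yy1* KD, with *Ctnna2* at 0.0368 and 0.136 TPM, *Ctnna3* at 0.120 and 0.0596 TPM, and *Pard3b* at 0.106 and 0.112 TPM.

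The primitive endoderm markers summed to between 151 and 172 TPM in control KD and between 152 and 158 TPM in *Yy1* KD libraries. Most of each sum came from *Gata6*. Of the 4 tested 0 were called, beside the 6.11% of all genes tested. Groups did not overlap for 3 of these 4, 2 lower and 1 higher, beside 30.1% of all genes tested. *Gata6* was at 111 and 121 TPM on average and *Col4a1* at 34.3 and 16.0 TPM (log2 fold change -0.99, limma adjusted p = 0.107). The oocyte markers summed to between 70.0 and 90.4 TPM in control KD and between 72.4 and 96.3 TPM in *Yy1* KD libraries.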
